A study of Mus musculus with 9 samples.

Results

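Ceruloplasmin (Cp) is a copper-containing ferroxidase that oxidises iron as it leaves cells, so that the iron can be loaded onto transferrin. Cells take up transferrin-bound iron through the transferrin receptor, move it out of endosomes after reduction by Steap3, store it in ferritin and release it through ferroportin. Iron regulatory proteins bind stem-loops in several of the mRNAs involved when iron is scarce, which blocks the translation of ferritin and ferroportin and stabilises the mRNA of the transferrin receptor. The expression of 10 genes of this system was examined out of the 12842 genes measured in NPK prostate cancer cells: Cp, the ferroportin gene Slc40a1, the uptake genes Tfrc, Slc11a2 and Steap3, the ferritin genes Fth1 and Ftl1, the haem oxygenase gene Hmox1, and the iron regulatory protein genes Aco1 and Ireb2. Cp was chosen by its measured values, because it fell most when Nsd2 was silenced, and the other 9 genes handle iron alongside it. For Cp, the values in shNsd2 cells are therefore given as a description and carry no test. The same holds for Cp in MCTP cells, because the control libraries also entered its choice.

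NPK cells are a mouse line grown out of lung metastases, taken from NPK mice, in which an inducible Cre expressed from the Nkx3.1 promoter acts on engineered alleles in prostate epithelium. All the cells compared share this genotype, and the study grew its lines in RPMI medium with serum. RNA-seq libraries of polyadenylated RNA fell into 3 groups of 3: control cells, cells with shRNA-mediated silencing of Nsd2 (shNsd2), and cells treated with an MCTP compound. The study used pLKO.1 lentiviral shRNAs, with an shRNA against luciferase as its control. The labels do not say which shRNA a library carried, nor whether that control shRNA was present in control cells. The titles of the shNsd2 libraries all name Nsd2, whereas their source labels read Nsd2, Nsd3 and Nsd4. The MCTP libraries are labelled 39, 40 and 41, and the dose and time for these cells were not given. The study's text names only MCTP-39, a putative inhibitor of NSD2, and describes its use in a human prostate cancer line. Because MCTP-39 may lack specificity, among other caveats, the study does not conclude that it acted through NSD2. The labels do not say that the libraries of a group came from separate cultures, so the p-values measure the spread between these samples only, which may be technical.

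Expression is given as the deposited value on a log2 scale, whose transform the header of the table leaves unnamed. The study describes a variance stabilization by DESeq2 for other profiles, and on such a scale 1 unit is close to a doubling for strongly expressed genes only and stands for more than that in weak genes. Percentages of control are therefore approximate, and none is given for Slc40a1, the weakest of the 10 genes. Sequencing depth is unknown, since the values are not read counts, and the spread between replicates sets the precision. Weakly expressed genes vary little on this scale, with a median SD within groups of 0.030 in the lowest 10% of genes by level, against 0.072 in the third decile. Groups were compared with limma, and a gene was called higher or lower at a Benjamini-Hochberg adjusted p under 0.05 over all genes tested. The libraries differed in how their values followed the GC content of transcripts. Across 12513 genes, the Spearman correlation between GC content and a library's deviation from the mean of all 9 libraries was -0.61, -0.33 and -0.19 in control replicates 1, 2 and 3. It was 0.11, 0.13 and -0.29 in the shNsd2 libraries, and 0.45, -0.32 and 0.56 in the MCTP libraries. MCTP replicate 2 thus stood apart from the other MCTP libraries, and calls of the 10 genes that change without it are given with and without it.

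The epithelial identity of the cells was checked by markers. Of 10 listed markers of prostate epithelium, 7 were among the genes measured, and 6 of these lay above the filter on low values in every library. The keratin gene Krt8, the most abundant on the mean of all libraries, lay between 15.97 and 16.70, though in MCTP cells Krt19 averaged 16.57 and Krt8 16.54, whereas Epcam averaged 3.55 in control cells, below the filter at 3.78. Levels of the epithelial list, summed and expressed in log2, were 17.53, 17.71 and 17.66 in control, 17.90, 17.68 and 18.04 in MCTP, and 17.50, 17.44 and 17.34 in shNsd2 cells. Single markers moved in both directions beneath this sum. Krt14 was higher than control by 0.78 in shNsd2 cells (limma adjusted p = 2.22e-05) and by 1.19 in MCTP cells (limma adjusted p = 0.000274), and Cdh1 was lower, at -0.20 (limma adjusted p = 0.00368) and -0.34 (limma adjusted p = 0.00325), and these calls held in all 15 alternatives. Krt19 was lower in shNsd2 cells, at -0.34 (limma adjusted p = 0.00257), and higher in MCTP cells, at 0.37 (limma adjusted p = 0.0392), where the call was lost in 6 of 15 alternatives with an adjusted p of up to 0.13. Krt8 was lower in shNsd2 cells, at -0.21 (limma adjusted p = 0.0193), a call lost in 5 of 15 alternatives with an adjusted p of up to 0.103. Their part in the values of the 10 genes was not tested. Of 8 macrophage markers, the lysosomal gene Cd68 alone was among the genes measured. For the erythroid list of 10 this was the case of Epor alone, and for the hepatocyte list of 6 of Trf alone, which is also a gene of iron uptake. Among 4 endothelial markers, Cdh5 was measured and lay below the filter in all 9 libraries, and among 6 fibroblast markers 3 were measured, led by the collagen gene Col1a1 at 8.20 in control cells. Since these are bulk samples, fewer cells of a kind and less RNA per cell cannot be told apart.

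Nsd2, listed under its earlier symbol Whsc1, was measured at 12.48, 12.43 and 12.42 in control libraries, at 11.56, 11.61 and 11.68 in shNsd2 libraries, and at 12.15, 12.21 and 12.07 in MCTP libraries. Every shNsd2 library lay below every MCTP library, and every MCTP library below every control library. The log2 difference from control was -0.83 in shNsd2 cells (standard error (SE) 0.041, limma adjusted p = 2.26e-06) and -0.30 in MCTP cells (SE 0.054, limma adjusted p = 0.00562), and both calls held in all 15 alternatives, although the latter difference was -0.18 after the length correction.

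Both treated groups held less Cp and more ferritin, haem oxygenase and Slc11a2 mRNA than control cells, and they differed in ferroportin mRNA, which was higher in MCTP cells than in both other groups. Each of the 10 genes lay above the filter in all 9 libraries. With Nsd2 silenced, 5 of the 9 genes tested were higher, 1 was lower and 3 were not called, where 23.1% of the 12205 genes tested were higher, 24.8% lower and 47.8% either. For 6 of these 9 genes the libraries of the groups were fully separated, without overlap, against 57.2% of all genes tested. With MCTP, 5 of 10 genes were higher, 1 was lower and 4 were not called, where 18% of 12216 genes were higher, 17.2% lower and 35.2% either, and 7 of the 10 showed no overlap between groups, against 50.6%. The gene lower was Cp, whose control libraries entered its choice. Cp is also in the 7 without overlap, in the median over the 10 genes and in later counts of the 10, and adds no support there. The count of all genes called with MCTP, 4305, rests on every library: it was 2366, 2162 and 2456 without control replicates 1, 2 and 3, and 2046, 7384 and 2842 without MCTP replicates 1, 2 and 3. The shares called are above those of all genes, but since the genes were chosen with results of these data known, nothing particular to them is read from the counts. The median difference was 0.25 over the 9 genes tested in shNsd2 cells, without Cp, and 0.21 over the 10 genes in MCTP cells, against 0.0020 and -0.0062 over all genes tested. Both comparisons use the same control libraries, so their values are set side by side and are not independent.

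Compared directly, shNsd2 cells were lower than MCTP cells in 3 of the 9 genes tested, Ftl1, Slc40a1 and Hmox1, and higher in 0 by limma's adjusted p, with 2 higher at an unadjusted p under 0.05. Over all 12217 genes tested, 20.6% were higher, 22.6% lower and 43.2% either. No overlap between groups was seen for 5 of the 9 genes, against 55% of all genes tested. The median difference over the 9 genes was -0.091, against 0.0072 over all genes. Without MCTP replicate 2, 7 of the 9 genes were called in this comparison, and 7 of the 10 between MCTP and control cells, while the count over all genes rose as well, from 5276 to 7781 and from 4305 to 7384. After a correction for GC content 6 of the 9 were called, with 6876 of all genes, and without MCTP replicate 1 or 3, or any shNsd2 replicate, 2 were. Of all genes, 3391 and 4662 were called without MCTP replicates 1 and 3. Without shNsd2 replicates 1, 2 and 3, the counts over all genes were 3571, 3429 and 3420.

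**Figure D1:**
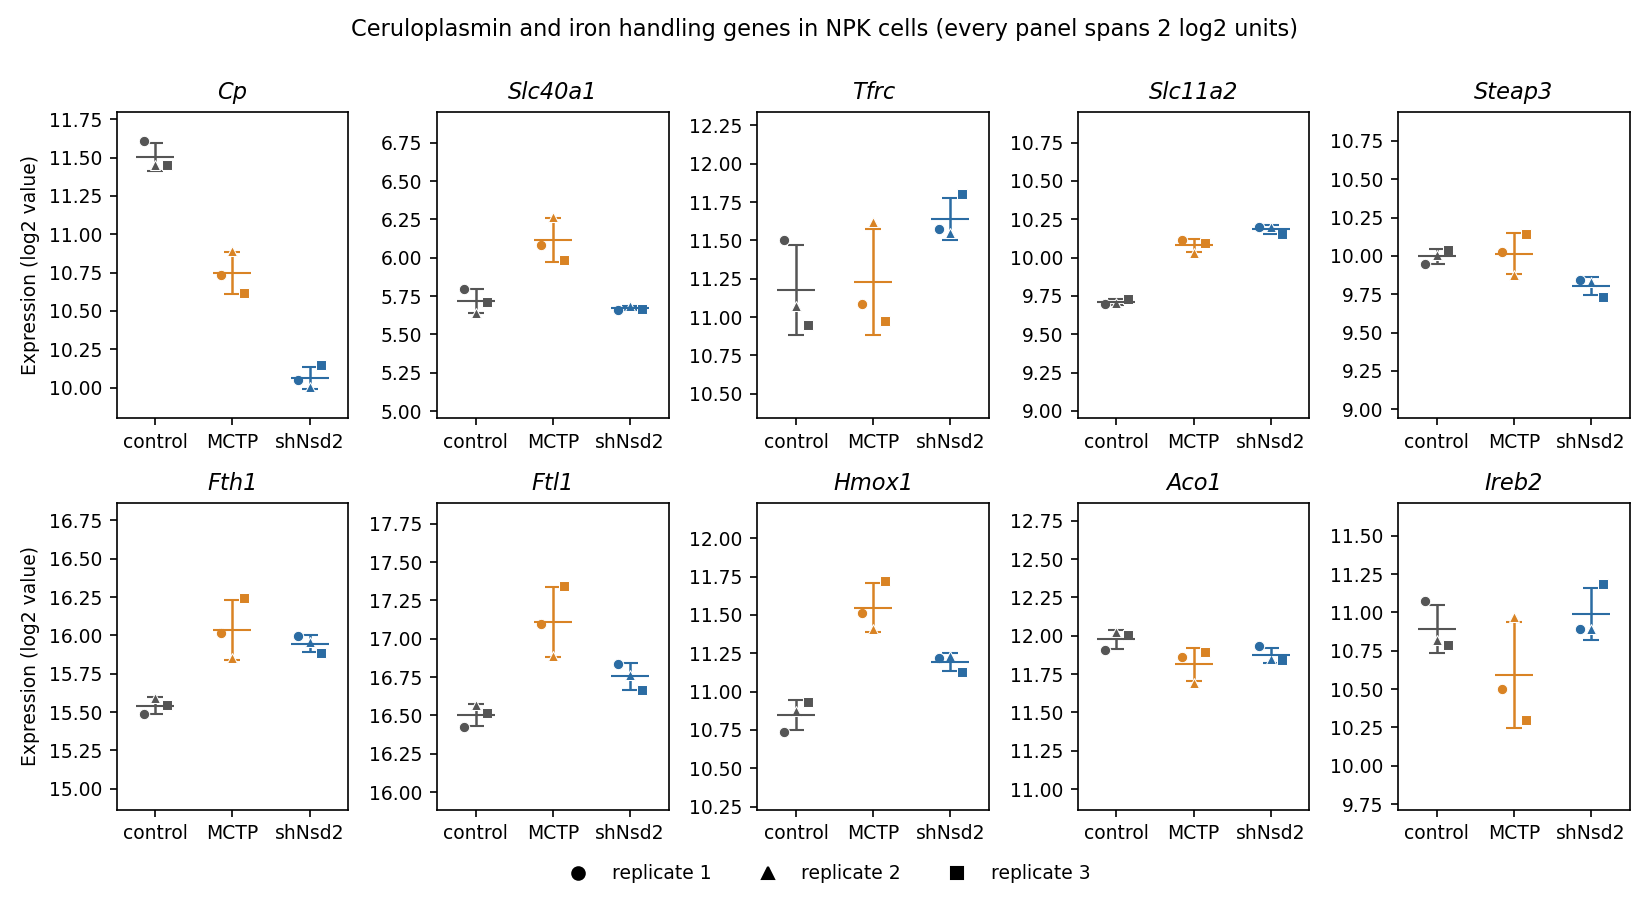
Expression (log2 value, vertical axes, each spanning 2 log2 units) of the 10 genes in control, MCTP and shNsd2 cells. Symbols are single libraries (circle, triangle and square for replicates 1, 2 and 3), with means as horizontal bars and SD as error bars (n = 3), and Cp lies between 11.45 and 11.61 in control and between 10.002 and 10.14 in shNsd2 cells.

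Cp (ENSMUSG00000003617.10) is a gene of 19 exons on the + strand of chromosome 3, spanning 19957054 to 20009145 in build GRCm38, to which all positions refer. Control libraries held Cp at 11.61, 11.45 and 11.45, averaging 11.50 ± 0.090 (SD, n = 3). MCTP libraries had 10.73, 10.89 and 10.62, averaging 10.75 ± 0.14 (SD, n = 3). The shNsd2 libraries had 10.05, 10.002 and 10.14, averaging 10.06 ± 0.072 (SD, n = 3). The groups were ordered without overlap, control above MCTP above shNsd2. Taken as log2, Cp mRNA stood at 36.9% ± 1.86 (SD, n = 3) of the control mean in shNsd2 cells and at 59.3% ± 5.64 (SD, n = 3) in MCTP cells. The difference of -1.44 between shNsd2 and control cells (SE 0.055) ranked 1 of 12205 falls, and is the value by which Cp was selected. The next fall, that of the opioid peptide gene Penk, was -1.43, and the one after it, of the selenium carrier gene Sepp1, was -1.35.

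In MCTP cells Cp was lower than in control cells by a log2 difference of -0.76 (SE 0.080), rank 65 of 12216 falls. The control libraries also entered the choice of Cp, so this difference is given without a test. It lay between -0.83 and -0.58 in the 15 alternatives. Cp in shNsd2 cells differed from MCTP cells by -0.68 (SE 0.077), and by -0.80 after the GC correction, both given without a test. The Cp transcript is low in GC, at 42.5% and percentile 11.3 of the genes measured. The part of GC content in these values was not tested. The fibroblast marker Col1a1 was lower in both treated groups too, by differences of -0.33 in MCTP cells (limma adjusted p = 0.0105) and -0.30 in shNsd2 cells (limma adjusted p = 0.00111). The summed level of the fibroblast list was 8.34, 8.23 and 8.33 in control, 8.07, 8.04 and 7.90 in MCTP, and 8.01, 8.07 and 8.02 in shNsd2 libraries, while Pdgfra of this list was higher in shNsd2 cells, by 0.13 (limma adjusted p = 0.00161), and Dcn lay below the filter. Their part in the values of Cp was not tested. The exons of Cp overlap those of Hps3, a gene of lysosome-related organelles on the opposite strand, and whether reads were counted by strand is not given in the sources used here, so reads in the overlap cannot be assigned to either gene. The same limit holds for Slc11a2, whose exons overlap those of Gm5475 on the opposite strand, and for Ftl1, whose exons overlap Gm10252 on the opposite strand and the microRNA gene Gm22133 on the same strand, and none of these 3 genes is in the table of values. Hps3 was measured at 9.08, 8.94 and 9.01 in control, 8.80, 8.95 and 8.67 in MCTP, and 8.90, 8.89 and 9.03 in shNsd2 libraries, and its groups overlapped in every comparison. Its difference from control was -0.069 in shNsd2 cells (limma adjusted p = 0.332) and -0.21 in MCTP cells (limma adjusted p = 0.083), and the latter was called without MCTP replicate 2 (-0.28, limma adjusted p = 0.00489) and with all 9 libraries in one fit (limma adjusted p = 0.0482), in a range up to 0.39.

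Slc40a1 (ENSMUSG00000025993.4, chromosome 1, 45908068 to 45926523, - strand) encodes ferroportin, the exporter of the ferrous iron that Cp oxidises. It was measured at 5.80, 5.64 and 5.71 in control libraries, 6.09, 6.27 and 5.99 in MCTP libraries, and 5.66, 5.68 and 5.67 in shNsd2 libraries. All MCTP libraries lay above all others, and the shNsd2 values fell inside the range of control. The MCTP difference from control was 0.40 (SE 0.075, limma adjusted p = 0.00694). With Nsd2 silenced it was -0.047 (95% confidence interval (CI) -0.14 to 0.046, limma adjusted p = 0.371), 0.017 after the GC correction, and between -0.085 and -0.0078 with 1 library left out. The direct difference of shNsd2 from MCTP cells was -0.44 (SE 0.068, limma adjusted p = 0.00206), and the calls against control and against shNsd2 cells held in all 15 alternatives. Cd68, the macrophage marker measured, was at 6.50, 6.51 and 6.60 in control, 7.20, 7.15 and 7.44 in MCTP, and 6.78, 6.78 and 6.72 in shNsd2 libraries, with differences of 0.73 for MCTP from control (limma adjusted p = 0.000688), 0.23 for shNsd2 from control (limma adjusted p = 0.00227) and -0.50 for shNsd2 from MCTP (limma adjusted p = 0.002). Its part in the values of Slc40a1 and Hmox1 was not tested.

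Tfrc (ENSMUSG00000022797.9, chromosome 16, 32608920 to 32632794, + strand) encodes transferrin receptor 1. Its expression was 11.51, 11.07 and 10.95 in control libraries, 11.08, 11.62 and 10.98 in MCTP libraries, and 11.57, 11.55 and 11.80 in shNsd2 libraries. The shNsd2 libraries were above all controls, though control replicate 1 came close to them, and MCTP replicate 2 lay among the shNsd2 values. The difference between shNsd2 and control cells was 0.47 (SE 0.13, limma adjusted p = 0.016), 139% ± 13.7 (SD, n = 3) of the control mean. The call was lost without control replicate 2 (0.41, limma adjusted p = 0.061), without shNsd2 replicate 3 (0.39, limma adjusted p = 0.0552) and with all 9 libraries in one fit (limma adjusted p = 0.0691), in a range of adjusted p from 8.11e-05 to 0.0691 over the alternatives. With MCTP the difference was 0.053 (95% CI -0.39 to 0.50, limma adjusted p = 0.844), and it turned to -0.14 without MCTP replicate 2 and to -0.061 without control replicate 3, and reached 0.22 without control replicate 1. It was called with the replicate block and GC correction together (0.27, limma adjusted p = 0.0289, in a range up to 0.996). The shNsd2 cells exceeded MCTP cells by 0.41 (SE 0.16, limma adjusted p = 0.0729), which was not called, and by 0.61 without MCTP replicate 2 (limma adjusted p = 9.17e-05, in a range up to 0.228). At 39.8% GC, the Tfrc transcript is lower in GC than most, as it stands at percentile 3.996 of the genes measured, and in each group it was highest in the library with the lowest correlation with GC content. After the GC correction the difference of shNsd2 from MCTP cells was 0.23 (limma adjusted p = 0.0251).

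Slc11a2 (ENSMUSG00000023030.9, chromosome 15, 100387898 to 100425072, - strand) encodes the divalent metal transporter that carries iron out of the endosome. It was measured at 9.70, 9.70 and 9.73 in control libraries, 10.12, 10.03 and 10.09 in MCTP libraries, and 10.20, 10.20 and 10.15 in shNsd2 libraries. The replicates were closer together than those of any other of the 10 genes in control cells, and the order was the reverse of that of Cp, with no overlap between groups. Slc11a2 was higher than control by 0.47 in shNsd2 cells (SE 0.037, limma adjusted p = 2.21e-05) and by 0.37 in MCTP cells (SE 0.051, limma adjusted p = 0.00186), and both calls held in all 15 alternatives. Taken as log2, these are 139% ± 2.81 and 129% ± 3.86 (SD, n = 3) of the control mean. The difference between shNsd2 and MCTP cells, 0.10 (95% CI -0.0062 to 0.22), was not called (limma adjusted p = 0.111), although the groups did not overlap, and it was called after the GC correction (0.14, limma adjusted p = 0.00578, in a range up to 0.321 over the alternatives).

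Steap3 (ENSMUSG00000026389.10, chromosome 1, 120190757 to 120272705, - strand) encodes the endosomal reductase that prepares iron for Slc11a2. Its values were 9.95, 10.01 and 10.04 in control, 10.02, 9.88 and 10.15 in MCTP, and 9.84, 9.83 and 9.73 in shNsd2 libraries. The shNsd2 libraries were the lowest, and control and MCTP libraries overlapped. Steap3 was lower than control by a difference of -0.19 in shNsd2 cells (SE 0.045, limma adjusted p = 0.00717), a call that held in all 15 alternatives. In MCTP cells the difference was 0.017 (95% CI -0.16 to 0.19, limma adjusted p = 0.871), and it was -0.0086 without control replicate 1, -0.048 without MCTP replicate 3 and -0.044 after the GC correction. Steap3 in shNsd2 cells differed from MCTP cells by -0.21 (SE 0.076, limma adjusted p = 0.0552), without overlap. That difference was called without MCTP replicate 2 (-0.28, limma adjusted p = 0.00169), after the GC correction (-0.18, limma adjusted p = 0.0149) and with all 9 libraries in one fit (limma adjusted p = 0.0264), in a range up to 0.176. The 3 uptake genes thus did not move together with Nsd2 silenced, since Tfrc and Slc11a2 were higher and Steap3 lower.

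Ferritin is a hollow shell of heavy chains, which oxidise iron, and light chains, which help to lay down its mineral core. The heavy chain gene Fth1 (ENSMUSG00000024661.6, chromosome 19, 9980598 to 9985098, + strand) was measured at 15.49, 15.59 and 15.55 in control, 16.02, 15.85 and 16.24 in MCTP, and 15.99, 15.96 and 15.89 in shNsd2 libraries. All treated libraries lay above all controls, and the treated groups overlapped. Fth1 was higher than control by 0.40 in shNsd2 cells (SE 0.047, limma adjusted p = 0.000204) and by 0.49 in MCTP cells (SE 0.10, limma adjusted p = 0.00897), and both calls held in all 15 alternatives, although the MCTP difference was 0.31 after quantile normalization. The difference between shNsd2 and MCTP cells was -0.091 (95% CI -0.32 to 0.14, limma adjusted p = 0.487). It was -0.18 without MCTP replicate 2 (limma adjusted p = 0.0394, in a range up to 0.911) and 0.012 without MCTP replicate 3.

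The light chain gene Ftl1 (ENSMUSG00000050708.8, chromosome 7, 45457944 to 45459884, - strand) was measured at 16.43, 16.56 and 16.52 in control, 17.09, 16.89 and 17.34 in MCTP, and 16.84, 16.76 and 16.66 in shNsd2 libraries. The 3 groups did not overlap, with MCTP highest, although the lowest MCTP library and the highest shNsd2 library were close. Ftl1 was higher than control by 0.61 in MCTP cells (SE 0.12, limma adjusted p = 0.00745), a call held in all 15 alternatives, although the difference was 0.38 after quantile normalization. In shNsd2 cells it was higher by 0.25 (SE 0.060, limma adjusted p = 0.00769), a call lost with all 9 libraries in one fit (limma adjusted p = 0.0892) and held in the other 14 alternatives. The difference of shNsd2 from MCTP cells, -0.35 (SE 0.12, limma adjusted p = 0.0443), was lost in 7 of 15 alternatives. These were quantile normalization (-0.092, limma adjusted p = 0.31), the replicate block (adjusted p = 0.0697), and leaving out MCTP replicate 1 (-0.36, adjusted p = 0.116), MCTP replicate 3 (-0.23, adjusted p = 0.083) or shNsd2 replicate 1 (-0.39, adjusted p = 0.0792), 2 (-0.36, adjusted p = 0.11) or 3 (-0.31, adjusted p = 0.144). Over the alternatives the adjusted p ran from 0.000807 to 0.31.

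The annotation names related copies of the ferritin genes, such as Fth-ps2 and Fth-ps3 for Fth1 and Ftl1-ps1, Ftl1-ps2 and Ftl2-ps for Ftl1, and reads may have been shared among them, so the ferritin values are uncertain to that extent. Ftl1-ps1 is among the genes measured, as Gm10116 (ENSMUSG00000062382.7), and was found at 8.76, 8.90 and 8.76 in control, 9.23, 9.18 and 9.53 in MCTP, and 9.09, 8.96 and 9.05 in shNsd2 libraries. Its groups followed the order of those of Ftl1 without overlap, with differences from control of 0.50 in MCTP cells (limma adjusted p = 0.00753) and 0.23 in shNsd2 cells (limma adjusted p = 0.00925), and the latter call was lost with all 9 libraries in one fit (limma adjusted p = 0.0746).

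Hmox1 (ENSMUSG00000005413.6, chromosome 8, 75093621 to 75100589, + strand) encodes the inducible haem oxygenase, which frees iron from haem. It was measured at 10.74, 10.87 and 10.93 in control libraries, 11.51, 11.41 and 11.72 in MCTP libraries, and 11.22, 11.23 and 11.13 in shNsd2 libraries. The groups did not overlap, and MCTP cells were highest. The difference from control was 0.70 in MCTP cells (SE 0.089, limma adjusted p = 0.00134), the largest rise with MCTP among the 10 genes, and 0.35 in shNsd2 cells (SE 0.054, limma adjusted p = 0.000913). Hmox1 mRNA thus stood at 163% ± 18.4 and 127% ± 5.10 (SD, n = 3) of the control mean. The shNsd2 cells were lower than MCTP cells by a difference of -0.36 (SE 0.082, limma adjusted p = 0.0115), and all 3 calls held in all 15 alternatives.

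Aco1 (ENSMUSG00000028405.8, chromosome 4, 40143081 to 40198338, + strand) encodes iron regulatory protein 1, which doubles as the cytosolic aconitase when it carries an iron-sulphur cluster. Its expression was 11.91, 12.02 and 12.00 in control, 11.86, 11.69 and 11.89 in MCTP, and 11.93, 11.85 and 11.84 in shNsd2 libraries. The MCTP libraries were just below all controls, and the shNsd2 libraries overlapped both other groups. The difference from control was -0.16 in MCTP cells (95% CI -0.32 to -0.0087, limma adjusted p = 0.0895) and -0.11 in shNsd2 cells (95% CI -0.20 to -0.0082, limma adjusted p = 0.0709), and neither was called. Each was called in 3 of 15 alternatives. For MCTP these include the GC correction (-0.22, limma adjusted p = 0.00427) and all 9 libraries in one fit (limma adjusted p = 0.0457), in a range up to 0.245. Without MCTP replicate 2 the MCTP difference shrank to -0.10 (limma adjusted p = 0.104). For shNsd2 they include the GC correction (-0.12, limma adjusted p = 0.00979) and leaving out control replicate 1 (-0.14, limma adjusted p = 0.0121), in a range up to 0.224. The difference of shNsd2 from MCTP cells was 0.058 (limma adjusted p = 0.485), between -0.0032 without MCTP replicate 2 and 0.097 without MCTP replicate 3.

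Ireb2 (ENSMUSG00000032293.7, chromosome 9, 54863789 to 54912530, + strand) encodes iron regulatory protein 2, which is broken down when iron is plentiful. It was measured at 11.07, 10.82 and 10.79 in control, 10.50, 10.97 and 10.30 in MCTP, and 10.89, 10.89 and 11.18 in shNsd2 libraries. All 3 groups overlapped, and the highest library of each group was the one in which Tfrc was highest too, namely control replicate 1, MCTP replicate 2 and shNsd2 replicate 3. With a GC content of 38.98%, percentile 2.53 of the genes measured, the Ireb2 transcript is even lower in GC than that of Tfrc. The difference from control was 0.093 in shNsd2 cells (95% CI -0.12 to 0.31, limma adjusted p = 0.44) and -0.30 in MCTP cells (95% CI -0.68 to 0.075, limma adjusted p = 0.175). Without shNsd2 replicate 3 the former was -0.0039, without control replicate 1 it was 0.18, and after the GC correction it was 0.12 (limma adjusted p = 0.0362, in a range up to 0.973). Without MCTP replicate 2 the latter was -0.49 (limma adjusted p = 0.000921), in a range of adjusted p from 0.000921 to 0.453 over the alternatives. It shrank to -0.16 without MCTP replicate 3 (limma adjusted p = 0.453) and to -0.076 after the GC correction (limma adjusted p = 0.384). The difference of shNsd2 from MCTP cells was 0.40 (limma adjusted p = 0.0902), and 0.59 without MCTP replicate 2 (limma adjusted p = 0.000413, in a range up to 0.252). It was 0.25 without MCTP replicate 3 (limma adjusted p = 0.218) and 0.20 after the GC correction (limma adjusted p = 0.0501).

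**Figure D2:**
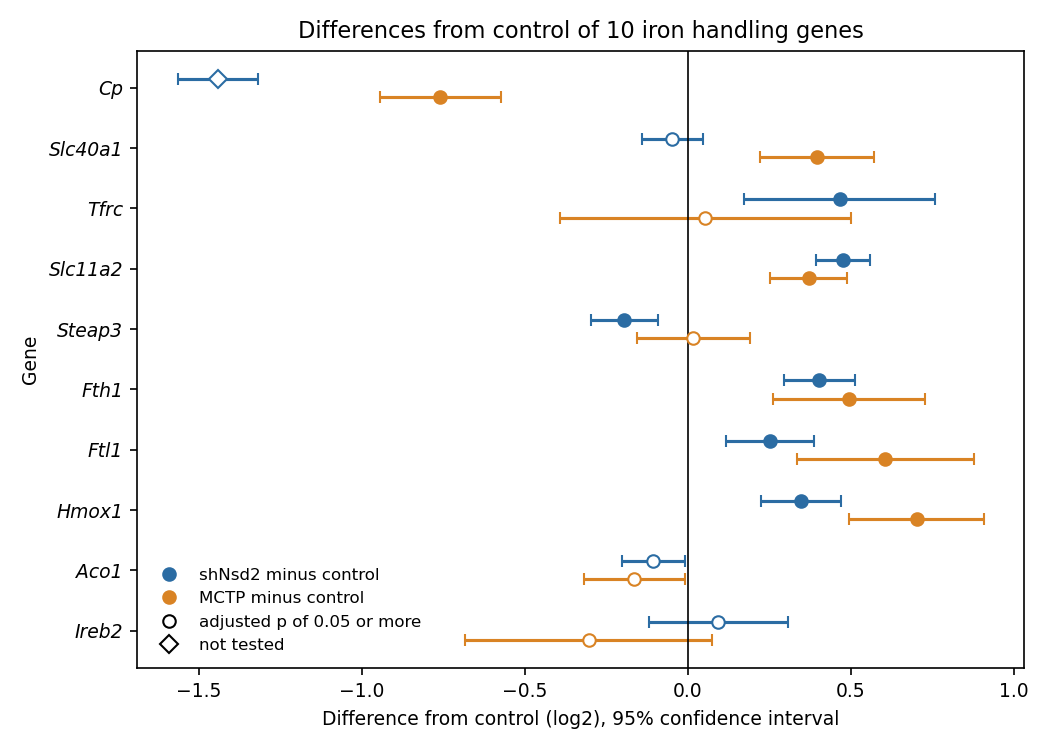
Differences from control (log2, horizontal axis) of the 10 genes (vertical axis) in shNsd2 cells (blue) and MCTP cells (orange), with 95% confidence intervals from limma. Filled circles have an adjusted p under 0.05, open circles do not, and the open diamond marks the difference of -1.44 by which Cp was selected and which was not tested. The circle of Cp in MCTP cells rests on control libraries that entered its choice, so its fill supports nothing.

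Levels of different genes were compared per kilobase of transcript, as the log2 value minus the log2 of the length of the principal transcript in kilobases, which takes the values as log2 and is least certain for the weakest gene, Slc40a1. In control cells Ftl1 had the highest level per kilobase, at 16.55 ± 0.071 (SD, n = 3), followed by Fth1 at 14.96 ± 0.055. Hmox1 at 10.20 ± 0.099 and Aco1 at 10.04 ± 0.062 came next, and were nearly in contact, since the lowest Hmox1 library and the highest Aco1 library both stood at 10.09 after rounding. Cp followed at 9.49 ± 0.090 per kilobase, then Tfrc at 8.88 ± 0.29, Ireb2 at 8.37 ± 0.16, Slc11a2 at 8.11 ± 0.018 and Steap3 at 7.63 ± 0.047. Slc40a1 was lowest, at 3.96 ± 0.077 per kilobase. No neighbours in this order overlapped across control libraries, although Hmox1 and Aco1 were separated at their edges by less than the SD of either gene, as were Tfrc and Ireb2. The order depends on the transcript chosen for each gene. In shNsd2 cells the level of Cp was 8.05 per kilobase, below that of Slc11a2 at 8.59.

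Several of the 10 mRNAs carry the iron-responsive element, the stem-loop that iron regulatory proteins bind. The principal transcript of each gene in GENCODE M21 was searched. The pattern was a C, any 5 bases, the loop CAGTGN and 5 bases that pair with the first 5, G-T pairs included. An element in another transcript, or with an interrupted stem, would be missed. Genes without a match are therefore not shown to lack the element. The stem-loop was found in 4 of the 10 genes, namely Fth1, Ftl1, Slc40a1 and Tfrc, against 191 of 12513 genes measured (1.53%), while the letters CAGTG alone occurred in 95% of transcripts. In Fth1, Ftl1 and Slc40a1 it lies in the 5' UTR, where 16 genes (0.128%) have a match. Tfrc has 4 matches in its 3' UTR, where 85 genes (0.679%) have one, at bases 3321 to 3337, 3700 to 3716, 3765 to 3781 and 3812 to 3828 of a transcript of 4890 bases. The sequences are shown with their loop in capitals and the stem on either side, first those in the 5' UTR and then those in the 3' UTR. The loops CAGTGT and CAGTGC each occur in both groups.
Fth1: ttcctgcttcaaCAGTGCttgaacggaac
Ftl1: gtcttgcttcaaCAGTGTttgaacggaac
Slc40a1: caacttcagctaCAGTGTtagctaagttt
Tfrc site 1: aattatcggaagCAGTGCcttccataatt
Tfrc site 2: cattatcgggagCAGTGTcttccataatg
Tfrc site 3: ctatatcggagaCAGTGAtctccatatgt
Tfrc site 4: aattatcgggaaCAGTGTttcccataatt
The genes with a match in the 5' UTR did not share a pattern of mRNA levels, as Fth1 and Ftl1 were higher in both treated groups and Slc40a1 was called higher with MCTP and not with Nsd2 silenced. A match in these letters describes the sequence and does not show that a protein was bound. Translation, on which the 5' UTR elements are known to act, was not measured by these libraries.

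Other genes of iron and haem handling were examined by lists grouped by function. Of 75 listed genes 61 were measured. With Nsd2 silenced, 11 of 59 tested were higher (18.6%, against 23.1% of all genes) and 14 lower (23.7%, against 24.8%), with a median difference of -0.022. With MCTP 16 of 60 were higher (26.7%, against 18%) and 10 lower (16.7%, against 17.2%), with a median of 0.040. In shNsd2 against MCTP cells 10 of 60 were higher (16.7%, against 20.6%) and 16 lower (26.7%, against 22.6%), with a median of -0.075. Slc39a8, tested only through the MCTP libraries, is among the 16 higher with MCTP and the 16 lower here, and its calls support nothing. Over all genes tested, the medians were 0.0020, -0.0062 and 0.0072. The MCTP counts moved with the libraries used: 27 of these genes were higher than control without MCTP replicate 2, 10 without control replicate 3 or MCTP replicate 3, and 9 without control replicate 2 or MCTP replicate 1. Without MCTP replicate 2, 28 were lower in shNsd2 than in MCTP cells.

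Among genes of iron uptake, 0 of 9 tested were higher in shNsd2 cells by limma (0 at an unadjusted p under 0.05) and 3 were lower (33.3%), against 23.1% and 24.8% of all genes, with a median of -0.065. The largest fall was that of Scara5, a receptor for ferritin, at -0.75 (SE 0.040, limma adjusted p = 3.08e-06), followed by the transferrin gene Trf at -0.31 (SE 0.045, limma adjusted p = 0.000633), a weakly expressed gene at 4.26 to 4.68 in the libraries. In MCTP cells 2 of 10 were higher (20%) and 3 lower (30%), against 18% and 17.2% of all genes, with a median of -0.034, and the largest falls were of the metalloreductase gene Steap2 at -0.48 (SE 0.065, limma adjusted p = 0.00178) and the iron and zinc importer gene Slc39a14 at -0.42 (SE 0.060, limma adjusted p = 0.00226). The third gene lower was Steap1, whose call was lost in 8 of 15 alternatives with an adjusted p of up to 0.142. After the GC correction the fall of Steap2 was -0.26. Of the 2 genes higher with MCTP, Mcoln1 lost its call in 5 of 15 alternatives with an adjusted p of up to 0.107. The other, Slc39a8, lay below the filter in control libraries, at 3.64, 3.62 and 3.61, and above it in MCTP libraries alone, at 3.79, 3.87 and 3.82, so it was tested only through the group in which it is high and its call supports nothing. For Scara5 the difference with MCTP was -0.076 (limma adjusted p = 0.259), called after the GC correction only (-0.13, limma adjusted p = 0.0348, in a range up to 0.572), and the direct difference of shNsd2 from MCTP cells was -0.68 (SE 0.048, limma adjusted p = 7.72e-05). In that comparison 3 of 10 uptake genes were higher (30%) and 5 lower (50%), against 20.6% and 22.6% of all genes, with a median of -0.13, and Slc39a8 is among the 5 for the same reason, as it lay below the filter in shNsd2 libraries.

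The iron storage list beside ferritin had 3 genes tested, so that 1 gene is 33.3% of it, against the shares of all genes given above. With Nsd2 silenced, Ncoa4, the cargo receptor that delivers ferritin for breakdown, was the 1 gene lower, at -0.19 (SE 0.055, limma adjusted p = 0.0199), or -0.12 after the GC correction, and 0 were higher by limma (1 at an unadjusted p under 0.05). That call was lost without control replicate 2 (-0.19, adjusted p = 0.0583), shNsd2 replicate 1 (-0.17, adjusted p = 0.0769) or shNsd2 replicate 2 (-0.15, adjusted p = 0.0825). With MCTP 0 of the 3 were called by limma (0 at an unadjusted p under 0.05), and in shNsd2 against MCTP cells 1 was higher and 0 lower (0 at an unadjusted p under 0.05). That gene was Pcbp2, an iron chaperone that loads ferritin, at 0.17 (SE 0.050, limma adjusted p = 0.028), a call lost in 8 of 15 alternatives with an adjusted p of up to 0.134. Libraries whose absence ended it were MCTP replicate 1 (0.18, adjusted p = 0.0659) and shNsd2 replicates 1 (0.16, adjusted p = 0.109), 2 (0.17, adjusted p = 0.111) and 3 (0.18, adjusted p = 0.0782). The median differences of the list were 0.045, -0.11 and 0.046 in these comparisons. Of the 4 further genes listed for iron export, 0 were among the genes measured.

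The regulators of iron balance included Fbxl5, the iron-sensing subunit of the ligase that marks iron regulatory protein 2 for breakdown. Fbxl5 was lower by a difference of -0.57 in MCTP cells (SE 0.073, limma adjusted p = 0.00138), a call held in all alternatives. In shNsd2 cells Bach1, a haem-sensing repressor of Hmox1, had the largest fall, at -0.26 (SE 0.063, limma adjusted p = 0.00877), which was not called with all 9 libraries in one fit (limma adjusted p = 0.0967). The difference of Fbxl5 in shNsd2 cells, -0.20 (limma adjusted p = 0.0242), was lost with all 9 libraries in one fit (adjusted p = 0.0785) and without control replicate 3 (-0.19, adjusted p = 0.0589), shNsd2 replicate 1 (-0.14, adjusted p = 0.0897) or shNsd2 replicate 2 (-0.18, adjusted p = 0.0789). The haemochromatosis gene Hfe was higher by 0.31 with MCTP (SE 0.058, limma adjusted p = 0.0068). Of the other genes called with MCTP, Bmp2, which was higher, lost its call in 8 of 15 alternatives with an adjusted p of up to 0.377, and Neo1, which was lower, lost it after the length correction (limma adjusted p = 0.125). Of 6 regulators tested, 0 were higher and 3 lower in shNsd2 cells (0 higher at an unadjusted p under 0.05), against 23.1% and 24.8% of all genes. In MCTP cells 2 were higher and 2 lower, against 18% and 17.2%, and 1 was higher and 2 lower in shNsd2 than in MCTP cells, against 20.6% and 22.6%. The medians of the list were -0.11, -0.083 and -0.043.

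Among genes of haem breakdown and transport 4 of 7 tested were higher with MCTP, against 18% of all genes, and 0 were lower by limma (0 at an unadjusted p under 0.05), with a median of 0.28. They were Slc48a1, which carries haem out of endosomes and lysosomes, at 0.62 (SE 0.080, limma adjusted p = 0.00146), the biliverdin reductase gene Blvrb at 0.49 (SE 0.092, limma adjusted p = 0.00655), the haem and folate carrier gene Slc46a1 at 0.42 (SE 0.066, limma adjusted p = 0.00327) and the efflux transporter gene Abcg2 at 0.28 (SE 0.057, limma adjusted p = 0.00954). The call of Abcg2 was lost without control replicate 2 (0.27, adjusted p = 0.0503), and its difference was 0.50 after the GC correction. With Nsd2 silenced 2 of the 7 were higher and 3 lower, against 23.1% and 24.8% of all genes, with a median of -0.068. Slc48a1 was higher by 0.40 (SE 0.038, limma adjusted p = 6.23e-05), whereas Abcg2 was lower, at -0.55 (SE 0.033, limma adjusted p = 5.57e-06). The direct difference of shNsd2 from MCTP cells was -0.82 for Abcg2 (SE 0.055, limma adjusted p = 6.4e-05) and -0.56 for Blvrb (SE 0.095, limma adjusted p = 0.00317), and 0 of the 7 were higher by limma (0 at an unadjusted p under 0.05) and 4 lower, against 20.6% and 22.6% of all genes, with a median of -0.23. Of these 4, Pgrmc1 lost its call in 6 of 15 alternatives with an adjusted p of up to 0.109.

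In haem synthesis 2 of 8 genes tested were higher (25%, against 23.1% of all genes) and 1 lower (12.5%, against 24.8%) with Nsd2 silenced, with a median of 0.021. The gene lower was Ppox, whose call was lost in 7 of 15 alternatives with an adjusted p of up to 0.139. In the same list 1 was higher and 1 lower with MCTP (12.5% each, against 18% and 17.2%), with a median of 0.13. The gene higher with MCTP was Uros, of uroporphyrinogen synthesis, at 0.30 (SE 0.053, limma adjusted p = 0.00494). Cpox, the coproporphyrinogen oxidase gene, was higher by 0.27 in shNsd2 cells (SE 0.049, limma adjusted p = 0.00202) and lower in MCTP cells, at -0.27 (SE 0.056, limma adjusted p = 0.00978), and the latter call was lost without control replicate 2 (-0.26, adjusted p = 0.0549). The direct difference was 0.54 (SE 0.062, limma adjusted p = 0.000587). In shNsd2 against MCTP cells 1 gene of the list was higher (12.5%, against 20.6%) and 2 lower (25%, against 22.6%), with a median of -0.095, and of the latter Fech lost its call in 5 of 15 alternatives with an adjusted p of up to 0.103.

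Iron-sulphur cluster assembly had 26 genes tested, of which 7 were higher (26.9%, against 23.1% of all genes) and 3 lower (11.5%, against 24.8%) in shNsd2 cells, with a median of 0.0090. The largest rises were of Ndor1, a reductase of the cytosolic assembly route, at 0.41 (SE 0.043, limma adjusted p = 0.000113), and of Nubp2, part of its scaffold, at 0.38 (SE 0.048, limma adjusted p = 0.00027). With MCTP 7 were higher (26.9%, against 18%) and 4 lower (15.4%, against 17.2%), with a median of 0.091. Nubp2 rose here too, by 0.52 (SE 0.10, limma adjusted p = 0.00756). The mitochondrial chaperone gene Hspa9 fell, at -0.50 (SE 0.071, limma adjusted p = 0.00216), as did the mitochondrial iron importer gene Slc25a37, at -0.47 (SE 0.074, limma adjusted p = 0.00328). Against MCTP cells, 4 were higher (15.4%, against 20.6%) and 3 lower (11.5%, against 22.6%) in shNsd2 cells, with a median of -0.041, and the largest rise was of Hspa9, at 0.58 (SE 0.054, limma adjusted p = 0.000223).

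Because Cp carries copper, genes of copper handling were listed as well, and all 12 were measured. With Nsd2 silenced 3 of the 12 were higher (25%, against 23.1% of all genes) and 7 lower (58.3%, against 24.8%), with a median of -0.13. The metallothionein genes Mt2 and Mt1, whose products bind copper and zinc, were lower by differences of -0.82 (SE 0.036, limma adjusted p = 1.16e-06) and -0.61 (SE 0.048, limma adjusted p = 2.41e-05). In MCTP cells these differences were 0.027 (limma adjusted p = 0.85) for Mt2 and -0.050 (limma adjusted p = 0.768) for Mt1, and they changed sign in 4 and 1 of 15 alternatives, none of which was called, while the direct differences of shNsd2 from MCTP cells were -0.85 (limma adjusted p = 0.000748) and -0.56 (limma adjusted p = 0.0103). With MCTP 3 were higher and 1 lower, against 18% and 17.2% of all genes, with a median of -0.047. The gene lower was the copper importer gene Slc31a1, whose call was lost after the GC correction (-0.11, limma adjusted p = 0.139). The rises were those of the copper transporter gene Slc31a2, at 0.59 (SE 0.050, limma adjusted p = 0.000222), and of the copper chaperone genes Atox1, at 0.52 (SE 0.092, limma adjusted p = 0.00528), and Ccs, at 0.51 (SE 0.070, limma adjusted p = 0.00201). Against MCTP cells, 1 was higher and 4 lower in shNsd2 cells, against 20.6% and 22.6% of all genes, with a median of -0.067, among them Slc31a2, at -0.74 (SE 0.048, limma adjusted p = 5.04e-05), and Ccs, at -0.64 (SE 0.068, limma adjusted p = 0.000414).

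**Figure D3:**
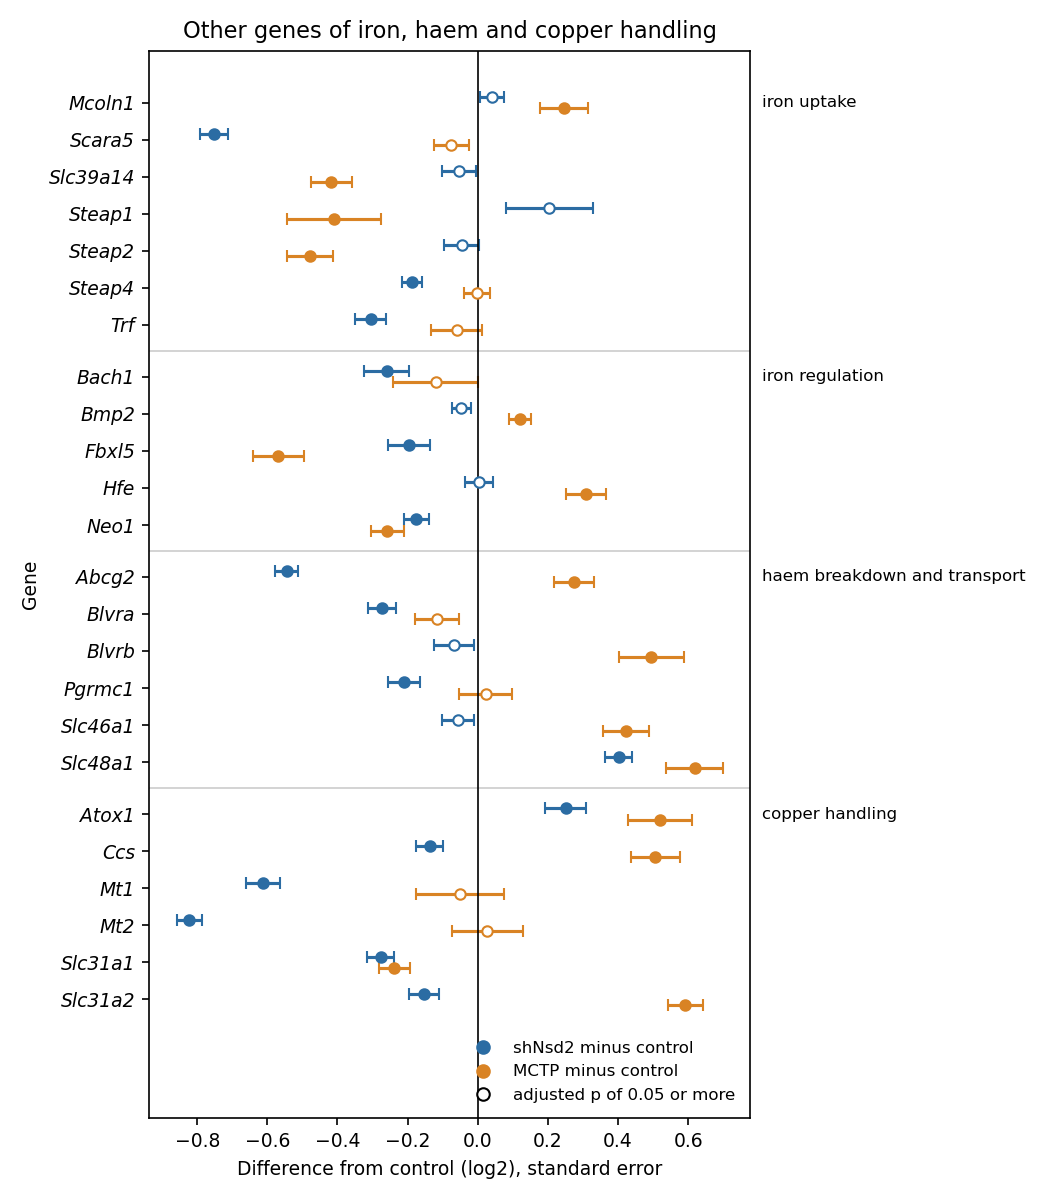
Differences from control (log2, horizontal axis, error bars are SE from limma) of named genes (vertical axis) of iron uptake, iron regulation, haem breakdown and transport, and copper handling, in shNsd2 cells (blue) and MCTP cells (orange). Filled circles have an adjusted p under 0.05 and open circles do not, and Mt2 and Scara5 are lowest in shNsd2 cells, at -0.82 and -0.75.

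Cp is also a plasma protein of the acute phase response, and 7 of 14 genes listed for this response were measured. With Nsd2 silenced 0 were higher by limma (0 at an unadjusted p under 0.05) and 3 lower (42.9%), against 23.1% and 24.8% of all genes, with a median of 0.028. Of these 3, Il6st lost its call in 12 of 15 alternatives with an adjusted p of up to 0.175. The largest fall was of the transcription factor gene Stat3, at -0.22 (SE 0.041, limma adjusted p = 0.00217). Stat3 was higher with MCTP, by 0.17 (limma adjusted p = 0.0496), a call lost in 7 of 15 alternatives with an adjusted p of up to 0.174, and the direct difference of shNsd2 from MCTP cells was -0.39 (SE 0.047, limma adjusted p = 0.000745). With MCTP 3 were higher and 3 lower (42.9% each, against 18% and 17.2%), with a median of -0.063, among them the transcription factor gene Cebpb, at -0.32 (SE 0.083, limma adjusted p = 0.0227), the cytokine signalling inhibitor gene Socs3, at -0.26 (SE 0.069, limma adjusted p = 0.023), and the complement gene C3, at 0.24 (SE 0.035, limma adjusted p = 0.00241). The call of Cebpb was lost without control replicate 2 (-0.27, adjusted p = 0.0897), control replicate 3 (-0.29, adjusted p = 0.0816) or MCTP replicate 1 (-0.35, adjusted p = 0.0582). The third gene lower, Il6ra, lost its call in 8 of 15 alternatives with an adjusted p of up to 0.11. The call of Socs3 was lost without control replicate 1 (-0.26, adjusted p = 0.0714), 2 (-0.28, adjusted p = 0.0668) or 3 (-0.25, adjusted p = 0.0815) or MCTP replicate 3 (-0.22, adjusted p = 0.0634). Against MCTP cells, 2 were higher and 2 lower in shNsd2 cells (28.6% each, against 20.6% and 22.6%), with a median of -0.045, and the largest rise was of Cebpb, at 0.45 (SE 0.071, limma adjusted p = 0.00247).

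The pattern of Cp over the 9 libraries was compared with that of 6097 genes of above-median expression, by Pearson's r. The 5 genes most like it were the phosphatase gene Ptprj (r = 0.994), Tusc3, whose product acts in the glycosylation of proteins (r = 0.993), the sphingomyelin synthase gene Sgms2 (r = 0.992), the kinase gene Prkca (r = 0.992) and Edem1, a gene of protein quality control in the endoplasmic reticulum (r = 0.989). These values describe 9 libraries in 3 groups, so that they mostly reflect the order of the groups. Sgms2 averaged 12.70 ± 0.040 (SD, n = 3) in control, 12.23 ± 0.15 in MCTP and 11.63 ± 0.072 in shNsd2 cells, or 47.9% ± 2.42 of the control mean in the latter. Edem1 followed the same order over a narrower range, from 12.70 ± 0.0073 (SD, n = 3) in control to 12.55 ± 0.021 in MCTP and 12.44 ± 0.019 in shNsd2 cells.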

How the data were processed

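RNA-seq values of 3 control, 3 MCTP and 3 shNsd2 libraries of NPK cells were analysed. The authors deposited 1 table of log2 values, already scaled between libraries, for 12842 genes, and its transform, which may be a variance stabilization, is not named. Of its 12 value columns, 3 match no library described here and were not used. The submitters' processing notes name bcl2fastq 1.8.4, TopHat, Cufflinks, DESeq, DESeq2 and the build mm9, without roles. Depth is unknown, because the table holds no counts. The members and gene lists were chosen with earlier results of these data known.

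A gene was tested if, in 3 or more of the 6 libraries compared, its value exceeded 3.78, which is the median among the lowest 10% of values. Tests used limma 3.58.1 (trended eBayes) in R 4.3.3. P-values were adjusted by Benjamini-Hochberg across the genes tested, at a threshold of 0.05. All 10 members were named, and of each list up to 4 genes from among the called genes with the largest differences. Slc39a8, Stat3 with MCTP and the markers Krt14, Krt19, Cdh1, Col1a1 and Pdgfra were named after their values were seen. The lists covered iron uptake, storage, export and regulation, haem breakdown and transport, haem synthesis, iron-sulphur cluster assembly, copper handling, the acute phase and cell type markers. The 5 genes most like Cp were taken by Pearson's r, and Penk and Sepp1 as the falls next to that of Cp. Positions, lengths, GC content and stem-loops come from GENCODE M21 (GRCm38, not the build of the notes), matched by Ensembl identifier for 12513 genes (97.4%). The principal transcript of a gene was used, and the longest where several qualified.

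Alternatives dropped the filter, fitted all 9 libraries at once, added the replicate number as a block, normalized quantiles, centred medians, removed the trend, corrected for GC content or length (lowess, span 0.3), joined the block to the GC correction, or left out each library in turn. The test was checked on simulated data. Python 3.11.15 and matplotlib 3.10.9 made the figures.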

Additional observations from a re-analysis of the deposited data

How the results depend on the processing

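Over all alternatives, 2092 recomputed values kept their direction and side of the threshold, or stayed within the allowed spread, 152 lost a call, 28 gained one, 20 moved and 18 changed direction. With 1 library left out, the genes called ranged from 2046 to 7384 between MCTP and control and from 3391 to 7781 between shNsd2 and MCTP, where the members called ranged from 2 to 7. The GC correction, with or without the replicate block, gave 6 members in the latter comparison, where the genes called went from 5276 to 6876, or 5938 with the block, a difference of 0.017 for Slc40a1 in shNsd2 against control, and -0.044 for Steap3 and -0.066 for Mt2 in MCTP against control. The length correction gave -0.030 for Mt2 in MCTP against control and -0.021 for Col1a1 in shNsd2 against MCTP. Leaving out 1 library gave -0.0039 to 0.18 for Ireb2 in shNsd2 against control. In MCTP against control it gave -0.14 to 0.22 for Tfrc, -0.048 to 0.087 for Steap3, -0.096 to 0.11 for Mt2 and -0.20 to 0.070 for Mt1. In shNsd2 against MCTP it gave -0.18 to 0.012 for Fth1, -0.0032 to 0.097 for Aco1 and -0.026 to 0.069 for Col1a1. The cause was not tested. With the replicate block, 4515 genes were called between shNsd2 and control, 3399 between MCTP and control and 3794 between shNsd2 and MCTP. The balance of directions moved with the scaling. Between shNsd2 and control, 2815 genes were higher and 3021 lower in the main fit. Median centring gave 3132 and 2686, and quantile normalization 3101 and 2779. Between MCTP and control, 2198 and 2107 became 2525 and 1709 with median centring. Between shNsd2 and MCTP, 2513 and 2763 became 2263 and 2870. Whether libraries with the same replicate number were paired is not known. Their deviations from the group means correlated across genes between -0.81 and 0.61. These correlations cannot decide it, because libraries within a group also differed in how they followed GC content. Depth is unknown, so what it limits cannot be stated beyond the spread of replicates.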
